A study of Mus musculus with 12 samples.

Results

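The Iroquois homeobox genes Irx1, Irx2, Irx3 and Irx5 were followed along the posterior neural tube of mouse embryos at embryonic day 9.5. They were taken by gene name, as the probe sets whose platform annotation names exactly 1 gene, that gene being one of the 4; each gene had 1 such probe set, so the set held 4 of 45101 probe sets. All 4 passed the filter on low signals and were among 12089 genes tested. The embryos were of the outbred CD1 strain, and no genetic change or experimental treatment is named for any of them. After 1 min in pancreatin at 2 mg per ml, which loosens tissue layers, the tube was separated with needles and cut into 6 pieces, called parts 1 to 6; which number lies toward the tail is not given in the sources used here. Each part was measured on 2 arrays, replicate 1 and replicate 2, with tissue from 2 embryos in all. Replicate numbers were taken to mark the embryos, and handling shared by same-numbered arrays cannot be told apart from the embryo. Every piece is an average over all cells of that length of tube. In such bulk tissue, more cells of a type and more RNA per cell cannot be told apart.

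Iroquois genes encode homeodomain transcription factors of the TALE class, so named for extra amino acids in the loop between the first helices of the homeodomain, and were first described in Drosophila. In mammals they lie in a pair of gene clusters. In the mouse table used here, Irx3 and Irx5 share chromosome 8 with Irx6, and Irx1 and Irx2 share chromosome 13 with Irx4. In the neural tube Irx3 is a marker of progenitors outside the most ventral domains. In the chick, Irx3 and the motor neuron progenitor factor Olig2 repress each other and so set a boundary between progenitor domains, and retinoic acid and FGF signals act in opposite directions on such progenitor genes.

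RefSeq promoter sequences (build GRCm38.p6) matched 2 of the 4 genes, Irx3 and Irx2, which stand for the steep and the shallow course described below and for the chromosome 8 and the chromosome 13 cluster. The windows run from 250 bases before to 50 bases after the start of transcription, at chr8:91801605-91801904 on the minus strand and chr13:72628570-72628869 on the plus strand. Capitals mark GGGCGG, the core of the GC box bound by Sp factors, read on both strands.
Irx3: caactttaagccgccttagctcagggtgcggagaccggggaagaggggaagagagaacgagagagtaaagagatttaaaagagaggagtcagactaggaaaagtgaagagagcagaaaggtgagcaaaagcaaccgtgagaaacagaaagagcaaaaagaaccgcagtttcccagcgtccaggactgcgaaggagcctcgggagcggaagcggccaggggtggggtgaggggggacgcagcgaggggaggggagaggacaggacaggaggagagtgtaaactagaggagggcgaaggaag
Irx2: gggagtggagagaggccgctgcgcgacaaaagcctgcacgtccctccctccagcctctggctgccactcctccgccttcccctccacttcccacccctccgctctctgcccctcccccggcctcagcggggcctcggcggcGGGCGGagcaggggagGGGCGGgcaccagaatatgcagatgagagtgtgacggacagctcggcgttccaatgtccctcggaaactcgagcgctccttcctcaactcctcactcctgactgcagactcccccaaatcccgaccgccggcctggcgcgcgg
The Irx2 window held 2 GGGCGG matches, which do not overlap, and the Irx3 window held 0; 35.7% of 32851 promoter windows of this length held at least 1. The 4 other motifs without a match in either window, each read on both strands, were AGGTCA (the nuclear receptor half-site, in 16.3% of windows), TGACAG (a Meis-type site, 19.2%), CTTTGA (a TCF-type core, 16.003%) and TATAAA (13.6%). The E-box CANNTG had 1 match in the Irx2 window and was not in the Irx3 window, against 72.3% of all windows. The Irx2 window was 69% G and C with 25 CpG dinucleotides, and the Irx3 window 56% with 14, against medians of 52.7% and 7 over all windows.

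The labelled tissue was checked first. Of 8 neural tube markers, all were tested, and their summed signal lay between 5140 and 5157 on the part 6 arrays and between 1092 and 1107 on the part 1 arrays. The 10 markers of presomitic and somite mesoderm summed to 101 to 114 in part 6 and to 1181 to 2128 in part 1, and the 10 markers of surface ectoderm to 380 to 440 and 537 to 1479. The median signal of an array lay between 16.7 and 19.1.

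Irx3 rose steeply and then levelled off. Its signal, in linear units on arrays scaled to a common mean, was 41.9 in replicate 1 and 39.2 in replicate 2 of part 1, and 227 and 183 in part 2. It was 915 and 954 in part 3 and 1888 and 2016 in part 4. In part 5 it was 2321 and 2734, and in part 6 it was 2643 and 2778. No arrays of neighbouring parts overlapped up to part 5, while parts 5 and 6 did. Overlap of neighbouring parts is given here and below as a description, as its share over all genes was not counted. The mean was 2711 ± 95.5 in part 6 and 40.6 ± 1.91 in part 1 (SD, n = 2), which is 66.8-fold. In both end parts its probe set lay above the array median, at the 99.0th percentile of all probe sets in part 6 and at the 64.5th and 64.1st in part 1.

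Irx5 also rose steeply, and both arrays of part 6 were above both of part 5, a step that did not pass in limma. Its signal was 10.9 on both arrays of part 1, 37.9 and 31.1 in part 2, and 83.9 and 125 in part 3. It was 172 and 225 in part 4, 223 and 419 in part 5, and 451 and 750 in part 6. Only parts 4 and 5 overlapped, and replicate 2 was higher in each of parts 3 to 6. The mean was 601 ± 211 in part 6 and 10.9 ± 0.017 in part 1, or 55.3-fold, but in part 1 the probe set stood below the array median, at the 39.5th and 37.7th percentile, so its fold rests on a dim signal. Irx5 is known for acting together with Irx3 in the mouse heart and limb.

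Irx1 rose gently. Its signal was 48.5 and 31.2 in part 1, 44.1 and 57.8 in part 2, and 57.9 and 69.9 in part 3. It was 70.3 and 92.9 in part 4, 105 and 101 in part 5, and 96.1 and 114 in part 6. The arrays of part 1 overlapped those of part 2, and those of part 5 those of part 6. The mean was 105 ± 12.8 in part 6 and 39.8 ± 12.3 in part 1, or 2.64-fold.

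Irx2 also rose gently. Its signal was 24.8 and 27.8 in part 1, 20.8 and 46.7 in part 2, and 45.2 and 52.3 in part 3. It was 51.8 and 61.0 in part 4, 50.7 and 57.6 in part 5, and 64.7 and 60.3 in part 6. All neighbouring parts overlapped except parts 5 and 6, and the arrays of part 2 were the farthest apart. The mean was 62.5 ± 3.12 in part 6 and 26.3 ± 2.07 in part 1, or 2.38-fold. Its order against Irx1 differed between the embryos, with part 6 over part 1 at 2.61-fold and 2.17-fold for Irx2 and at 1.98-fold and 3.67-fold for Irx1 in replicates 1 and 2.

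**Figure D1:**
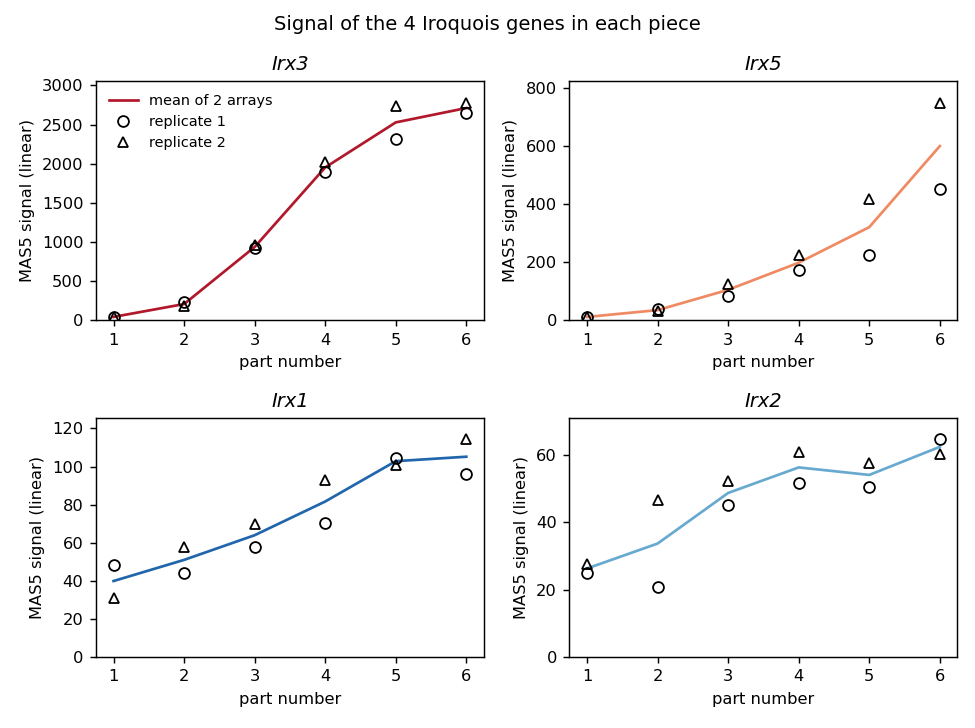
Linear signal (vertical axis, a scale of its own in each panel) against part number for Irx3, Irx5, Irx1 and Irx2; circles are replicate 1, triangles replicate 2 and the line the mean of the 2 arrays. Irx3 flattens in parts 5 and 6, at means of 2527 and 2711, Irx5 is steepest between the means of parts 5 and 6, and Irx1 and Irx2 stay under 120 throughout; levels of different probe sets are not comparable.

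All 4 genes were called as rising with the part number. Signals were put on a log2 scale after adding 4.43, and the slope over all 12 arrays was tested with limma, with Benjamini-Hochberg adjustment over all genes and a threshold of 0.05. The slope was 1.18 ± 0.13 log2 per part for Irx3 (SE, adjusted p = 5.68e-05) and 1.03 ± 0.065 for Irx5 (4.78e-07). It was 0.28 ± 0.036 for Irx1 (0.000191) and 0.23 ± 0.047 for Irx2 (0.00613). For comparison, 5.66% of all genes tested were called as rising, the median slope of all genes was -0.0073, and that of the 4 was 0.66. Irx3 had the second highest slope of all 12089 genes and Irx5 rank 10, while Irx1 was at rank 250 and Irx2 at rank 360. A slope of at least 1 log2 per part that passed the test was found for 11 genes, 0.091% of those tested. When the part 1 arrays were left out, Irx2 was not called (slope 0.19, adjusted p = 0.109 in limma).

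**Figure D2:**
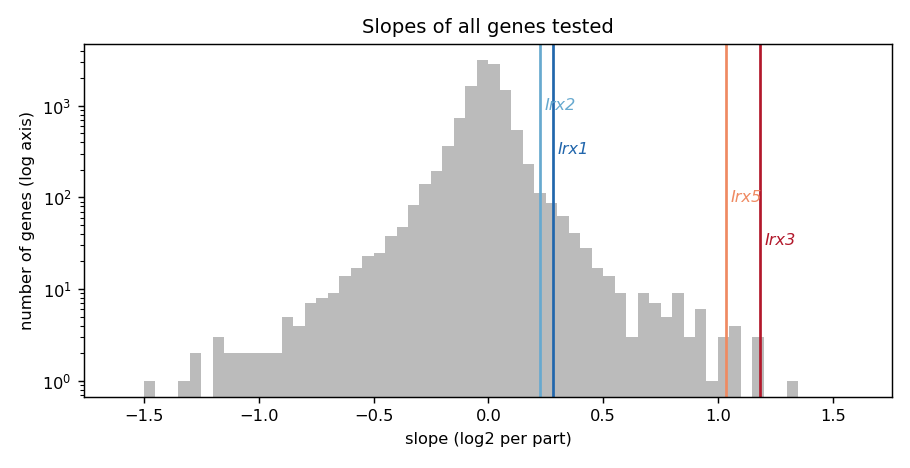
Number of genes (vertical log axis) by slope in log2 per part (horizontal axis) for all 12089 genes tested, with vertical lines at the 4 Iroquois genes. Irx3 at 1.18 and Irx5 at 1.03 lie in the sparse upper tail, Irx1 at 0.28 and Irx2 at 0.23 at its foot.

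The 4 slopes fell into a steep pair and a shallow pair. For each of the 6 pairs of genes the slope of the per-array log2 difference was tested by an exact permutation of part numbers within each replicate number (two-sided, adjusted over the 6 pairs). Irx3 exceeded Irx1 by 0.90 ± 0.15 log2 per part (SE, n = 12 arrays, adjusted exact permutation p = 5.21e-05) and Irx2 by 0.96 ± 0.14 (3.09e-05). Irx5 exceeded Irx1 by 0.75 ± 0.066 and Irx2 by 0.81 ± 0.073, each with an adjusted exact permutation p of 2.31e-05. Within the chromosome 8 pair, Irx3 minus Irx5 was 0.15 with a 95% interval of -0.10 to 0.40 (adjusted exact permutation p = 0.247). It was 0.060 without replicate 1 of part 1 and 0.091 without replicate 2 of part 1, and 0.25 without replicate 2 of part 6, where the interval was 0.00014 to 0.50 and the adjusted exact permutation p 0.0659; with an offset of 16 it was 0.24. Within the chromosome 13 pair, Irx1 minus Irx2 was 0.056 with an interval of -0.051 to 0.16 (adjusted exact permutation p = 0.259), and was 0.031 without replicate 2 of part 6, 0.032 without replicate 2 of part 1, 0.090 without replicate 1 of part 1 and 0.086 without replicate 1 of part 6. Neither difference passed, which does not show that the slopes were alike. Each gene rests on 1 probe set, and how far a probe set's own response range bears on its slope was not tested.

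The end pieces gave the same order of sizes. In limma, part 6 minus part 1 was 5.91 ± 0.17 log2 for Irx3 (SE, adjusted p = 3.65e-07), rank 1 of all genes by adjusted p, and 5.26 ± 0.34 for Irx5 (2.18e-05). The difference was 1.33 ± 0.24 for Irx1 (0.0083) and 1.12 ± 0.29 for Irx2 (0.0396), so all 4 were called as higher in part 6, against 4.17% of all genes. On both arrays of part 6 each of the 4 was above both arrays of part 1, as were 20.2% of all genes. The call for Irx2 was lost without any array of parts 1, 3, 4, 5 or 6 (adjusted p between 0.0581 and 0.160) and without a filter on low signals (0.0741), and that for Irx1 without replicate 2 of part 6 (0.0732).

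The course between the ends was tested next. The limma F test over the 6 parts called Irx3 (adjusted p = 1.63e-06), Irx5 (0.000137) and Irx1 (0.0369) and not Irx2 (0.170), against 4.91% of all genes called. Irx1 was not called in 10 of 12 fits that each left out 1 array (adjusted p up to 0.109), and Irx2 passed without replicate 2 of part 2 (0.0157). Signals were higher at every step in both embryos for Irx3 and Irx5, and for 0.381% of all genes; the mean signals of Irx1 were also higher at every step, as for 1.81% of all genes, while those of Irx2 dipped between parts 4 and 5.

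For Irx3 the largest steps on the log2 scale came first. It rose by 2.21 ± 0.17 log2 between parts 1 and 2 (limma adjusted p = 0.00304) and by 2.17 ± 0.17 between parts 2 and 3 (0.00354), steps at which 0.165% and 0.091% of all genes were called as rising. The later steps of 1.06 ± 0.17 into part 4 (0.213), 0.37 ± 0.17 into part 5 and 0.11 ± 0.17 into part 6 did not pass; 0.00827% of all genes were called as rising at each of these 3 steps. The quadratic term over part number, which is negative where a course flattens, was -0.32 ± 0.022 log2 per part squared for Irx3 (limma adjusted p = 4.25e-05), the smallest adjusted p of all genes; 0.96% of genes were called with a negative term. It was -0.098 ± 0.037 for Irx5 (adjusted p = 0.301), -0.047 ± 0.030 for Irx2 (0.632) and -0.027 ± 0.025 for Irx1 (0.756), none of which passed.

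The steps of Irx5 were 1.34 ± 0.34 log2 into part 2 (limma adjusted p = 0.207), 1.46 ± 0.34 into part 3 (0.319), 0.91 ± 0.34 into part 4, 0.63 ± 0.34 into part 5 and 0.92 ± 0.34 into part 6, and none passed over all genes. Leaving out 1 array gave 0.18 (without replicate 2 of part 5) to 1.07 (without replicate 1 of part 5) for the step into part 5. The step into part 6 was 0.47 without replicate 1 of part 5, 0.55 without replicate 2 of part 6 and at most 1.37. From part 3 to part 6, where both genes lay above the array median, Irx3 gained 1.53 and 1.54 log2 in the embryos of replicates 1 and 2, and Irx5 gained 2.37 and 2.54. The difference in shape between the genes was not tested. The steps of Irx1 were 0.34, 0.31, 0.33, 0.33 and 0.026 ± 0.24 log2, and those of Irx2 0.23, 0.56, 0.19, -0.053 and 0.19 ± 0.29; none passed. With 1 array fewer the steps of Irx1 ranged from 0.054 to 0.63 into part 2 and from 0.13 to 0.49 into part 3, and that of Irx2 into part 3 from 0.056 to 1.07.

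**Figure D3:**
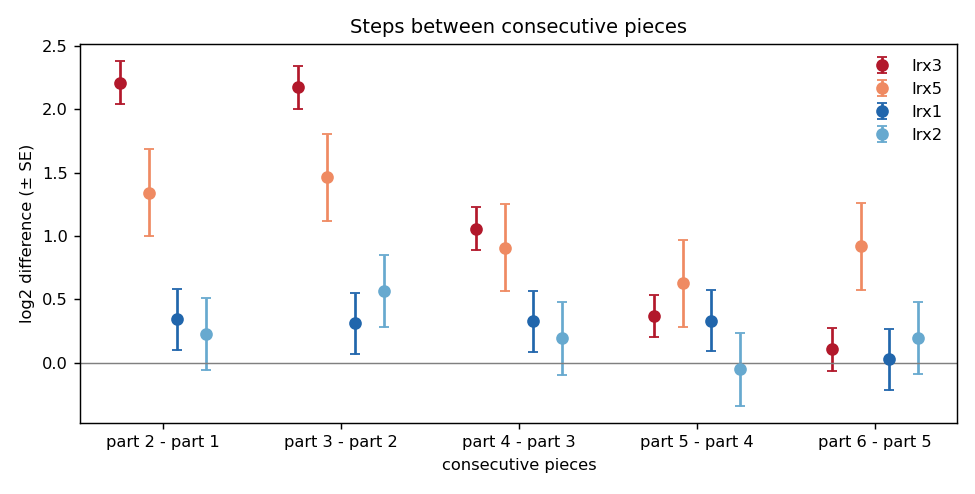
Log2 difference with its standard error from limma (vertical axis) for the 5 pairs of consecutive pieces (horizontal axis) and the 4 Iroquois genes. The steps of Irx3 shrink from 2.21 to 0.11 along the series, those of Irx5 lie between 0.63 and 1.46 (0.18 to 1.74 over fits with 1 array fewer), and those of Irx1 and Irx2 lie under 0.6.

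In linear signal, the gain of Irx3 over part 1, as a share of its gain in part 6, was 6.16% for part 2, 33.5% for part 3, 71.6% for part 4 and 93.1% for part 5. For Irx5 the shares in the same order were 4.004%, 15.9%, 31.8% and 52.6%, so nearly as much of its signal was added between parts 5 and 6 as before. Irx1 had shares of 17.01%, 36.9%, 64.0% and 96.4%, and Irx2 20.5%, 62.1%, 83.1% and 76.9%. In part 5 the 2 embryos gave 48.2% and 55.2% for Irx5, 87.6% and 98.4% for Irx3, 118% and 84.1% for Irx1, and 64.8% and 91.8% for Irx2. In part 2 they gave -9.23% and 32.05% for Irx1 and -10.1% and 58.0% for Irx2, so the embryos were far apart there.

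**Figure D4:**
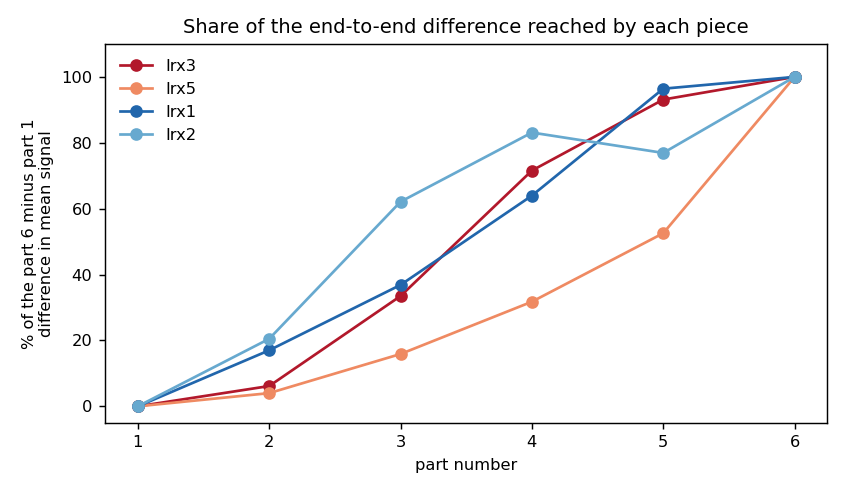
Share of the difference in mean linear signal between parts 6 and 1 that was reached in each part, in percent (vertical axis), against part number, 1 line per gene. Irx5 stands at 52.6% in part 5, where Irx3 and Irx1 are above 90%.

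No difference between the embryos passed for these genes. Slopes were 1.15 ± 0.23 and 1.22 ± 0.24 log2 per part for Irx3 in replicates 1 and 2 (SE, n = 6 parts each) and 0.94 ± 0.079 and 1.13 ± 0.089 for Irx5. They were 0.24 ± 0.046 and 0.32 ± 0.054 for Irx1 and 0.28 ± 0.067 and 0.17 ± 0.057 for Irx2. The limma interaction test called 0 of 12089 genes as differing in slope between embryos, with 798 at an unadjusted p under 0.05; for the 4 genes the adjusted p was 0.758 to 0.963. In level, replicate 2 minus replicate 1 was 0.38 ± 0.16 log2 for Irx5 (limma adjusted p = 0.228), 0.27 ± 0.14 for Irx2 (0.327), 0.10 ± 0.14 for Irx1 and 0.011 ± 0.096 for Irx3; none of the 4 passed, against 1.63% of all genes. Over the 12 arrays the log2 signals of the 4 genes correlated with each other at r = 0.85 to 0.96, a description of arrays that share the part order and the embryos.

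The other genes of the same clusters gave low signals. Irx4 had signals of 0.68 to 9.92 and Irx6 of 1.67 to 8.96 over the 12 arrays, under every array's median, so neither passed the filter and neither was tested. Mkx (Mohawk), the Iroquois-like homeobox gene of tendon, had a slope of -0.20 ± 0.065 log2 per part that did not pass (limma adjusted p = 0.0573) but did in 3 of 12 fits with 1 array fewer, with 23.4 and 13.3 in part 6 and 23.8 and 50.8 in part 1. Among the nearest genes on each side of the 4, only Crnde, a non-coding RNA gene next to Irx5, was tested. Crnde had signals of 21.8 and 21.6 in part 6 and of 7.14 and 2.92 in part 1, and rose by 0.29 ± 0.045 log2 per part (limma adjusted p = 0.000815), although most of its signals lay under the array median.

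Other TALE homeobox genes were taken from a list of 11. Of these, 9 were tested, 4 rose, 1 fell and 4 did not pass, with a median slope of 0.077. Meis1 and Meis2, cofactors of Hox proteins, rose by 0.95 ± 0.051 and 1.01 ± 0.11 log2 per part, next to Irx5. Pbx3, a partner of Meis proteins, rose by 0.44 ± 0.068 and Pknox2 by 0.25 ± 0.048 (with limma, 0.0930 as adjusted p when the part 6 arrays were left out). Other probe sets of these genes had slopes of 0.68 and 0.31 for Meis1, 0.96, 0.89 and 0.99 for Meis2 and 0.24 for Pbx3. Meis3, Pbx2, Pknox1 and Tgif2 had slopes between -0.035 and 0.077 and did not pass. Tgif1, a repressor of TGF-beta and retinoid responses, fell by 0.12 per part (limma adjusted p = 0.0452), a call that did not hold in 9 of 12 fits with 1 array fewer, without the part 6 arrays or without the filter.

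Factors of other progenitor domains were listed next. Of 12 dorsal and intermediate factors, 9 were tested, 6 rose, 0 fell and 3 did not pass, with a median slope of 0.25. The count was 4 rising and 1 falling without both arrays of part 6. Among them were Pax6, expressed in most progenitors between the floor and the roof (0.84 ± 0.093, and 0.12 to 0.41 for 3 dimmer probe sets), and Dbx1, of the intermediate progenitors (0.25 ± 0.045, not called when the part 6 arrays were left out, adjusted p = 0.0699 in limma). Of 7 ventral factors, 5 were tested, 4 rose and 0 fell, with a median slope of 0.48. With the filter at the 75th percentile 2 were tested and 1 rose, and on leaving out 1 array 3 or 4 rose. Olig2, the partner of Irx3 in mutual repression in the chick, had signals averaging 87.0 ± 30.3 in part 6 and 1.01 ± 0.98 in part 1, and a slope of 0.85 ± 0.12. Nkx6-1, another ventral progenitor factor, rose by 0.85 ± 0.095. Irx3 and Olig2 thus both rose with the part number, in pieces for which no separation of dorsal from ventral cells is described.

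Retinoid and FGF genes, whose signals act on progenitor genes in the chick, were listed beside them. Of 10 retinoid genes, 7 were tested, 3 rose, 2 fell and 2 did not pass, with a median slope of -0.051. Without the part 6 arrays 1 rose and 2 fell, and on leaving out 1 array 2 or 3 rose. Aldh1a2, which makes retinoic acid, rose by 0.91 ± 0.097 log2 per part, and Cyp26a1, which degrades it, fell by 1.49 per part. Of 12 listed FGF genes, all were tested, 0 rose, 6 fell and 6 did not pass, with a median slope of -0.52. Without both arrays of part 1, 9 fell. The receptor Fgfr2 was outside this list and rose by 0.85 ± 0.082 per part (limma adjusted p = 2.07e-05). Its other probe sets had slopes of 0.32 and 0.51. Fgf8 fell by 0.88 per part and Spry4, a feedback inhibitor, by 0.96 per part (-0.53 and -0.44 for its other probe sets). The background shares called over all genes were 5.66% rising and 7.08% falling.

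**Figure D5:**
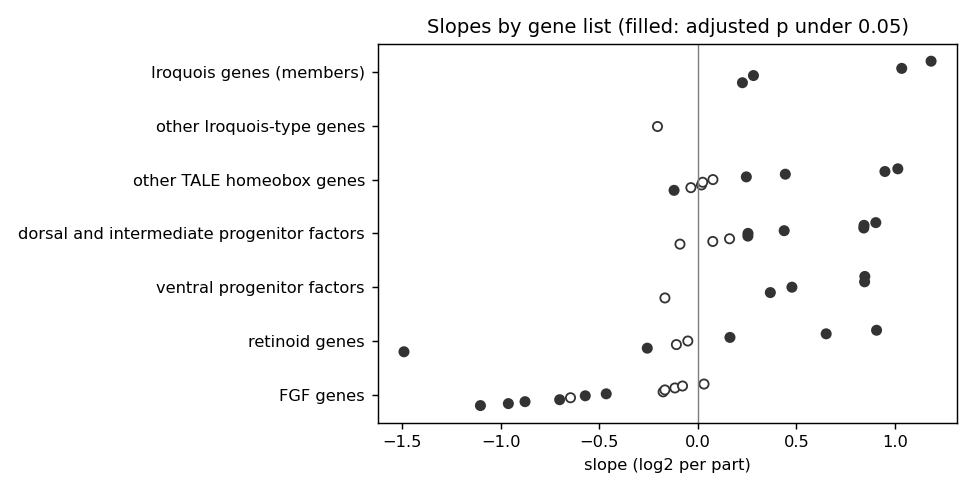
Slope in log2 per part (horizontal axis) of each tested gene, 1 point per gene, by gene list (rows); filled points passed the limma test at an adjusted p under 0.05. The 4 Iroquois genes sit at 0.23 to 1.18, Meis1 and Meis2 at 0.95 and 1.01 in the row of other TALE genes. The listed FGF genes, without Fgfr2, lie between -1.10 and 0.032.

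Genes with the most similar courses were named by Pearson's r of log2 signal over the 12 arrays, as a description, since all arrays share the part order. Closest to Irx3 were Gdf10, a ligand of the BMP family (r = 0.988, slope 0.92), Ptn, the growth factor pleiotrophin (0.985, 0.85), Hdgfl3 (0.984, 0.23), the non-coding RNA Miat (0.984, 0.77) and Scrn1 (0.981, 0.65). Most opposite to Irx3 were Smim10l2a (r = -0.997), the Wnt ligand Wnt5b (-0.992) and Cd40, a receptor of the TNF receptor family (-0.988). Wnt5b had mean signals of 60.3 in part 6 and 911 in part 1.

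Closest to Irx5 were Meis1 (r = 0.983), Ptn (0.982), Ildr2 (0.982), Scube2, which helps release Hedgehog protein (0.980), and the adhesion molecule Nrcam (0.980). Most opposite were Sting1, an adaptor of innate immune sensing (r = -0.990), Rspo3, an enhancer of Wnt signalling (-0.982), and Lypd6b (-0.979). Irx3 and Irx5 thus shared Ptn among their 5 closest genes, and Irx5 and Irx1 shared Ildr2 and Nrcam.

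Closest to Irx1 were Fgfr2, an FGF receptor (r = 0.964, slope 0.85), Spata13 (0.963), Ildr2 (0.961), Nrcam (0.954) and Eml1, which binds microtubules (0.952). Most opposite were Ccdc28a (-0.954), Tm6sf1 (-0.954) and the cyclin Ccng2 (-0.954). Closest to Irx2 were Plekha7, of the adherens junction (r = 0.949), the HMG factor Sox13 (0.938), Armc6 (0.936), Samd5 (0.934) and the thioesterase Acot1 (0.933). Most opposite were Mylip (r = -0.970), which marks the LDL receptor for breakdown, and the LIM domain genes Csrp2 (-0.970) and Pdlim4 (-0.967). The slope calls of all 5 genes closest to Irx2 did not hold without the part 1 arrays. Over all alternatives the highest adjusted p in limma among these genes was 0.310, for Plekha7.

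Markers of cell types moved along the same axis. Of 8 neural markers 6 rose and 0 fell (4 rose without the part 1 arrays), and their mean summed signal was 4.68-fold higher in part 6 than in part 1. A sum weighs bright genes most, so this fold is not a like measure to the 66.8-fold of Irx3 or the 2.38-fold of Irx2. Pax6 and Nkx6-1 were counted both as neural markers and among the progenitor domain factors. Of 7 tested caudal progenitor genes 6 fell, with sums of 1364 to 1434 in part 6 and 4125 to 4702 in part 1. Fgf8 was counted both here and among the FGF genes. With an offset of 1 or without a filter 4 caudal progenitor genes fell. On leaving out 1 array 4 to 6 fell, with fewer than 6 in most of these fits. Of 10 presomitic and somite markers 7 were tested and 3 fell. These were Hes7 (-1.27 log2 per part), Tcf15 (-0.28) and Tbx6 (-0.86, not called without the part 1 arrays). The listed genes Ripply2, Pax1 and Uncx did not pass the filter. Of 10 surface ectoderm markers 8 fell (1 rose and 5 fell without the part 1 arrays). On leaving out 1 array 5 to 8 of them fell, with fewer than 8 in most of these fits. The presomitic sum was 101 to 114 in part 6 and 237 to 241 in part 3, and the surface ectoderm sum 380 to 440 and 343 to 511. The mean sum in part 6 over part 3 was 1.83-fold for neural markers and 0.29-fold for caudal progenitor genes. It was 4.43-fold for ventral factors and 2.47-fold for dorsal and intermediate factors. Irx5 was 5.75-fold and Irx3 2.90-fold higher in part 6 than in part 3. Without both arrays of part 1, the slope passed for Irx1, Irx3 and Irx5. Markers of lateral and intermediate mesoderm (sums of 25 to 67 over 8 genes) and endothelium (34 to 62 over 8 genes) stayed low on every array, and no tested gene of either list passed. Blood markers were uneven, with sums of 105 and 6304 on the part 6 arrays and 63 and 9969 on the part 1 arrays, and 0 of 6 tested genes were called by limma. Gut endoderm sums were also uneven, at 91 and 634 on the part 2 arrays and 94 and 287 on the part 4 arrays. Ventral factor sums were 60 and 591 in part 2 and 117 and 321 in part 4. Shh was on both the gut endoderm and the ventral list, so these sums are not separate observations. Of 3 gut endoderm and 1 brain gene tested, 0 were called, and of 6 tested neuron genes 2 rose and 1 fell, with 1 rising in 5 of 12 fits with 1 array fewer. The part of these markers in the courses of the Iroquois genes was not tested.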

How the data were processed

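The authors deposited a linear intensity for every probe set on every array; the submitters' processing notes name MAS5; RNA was labelled after double amplification, per the labels' protocols. Its version and settings were not stated. The mean signal, with 2% of probe sets trimmed at each end, was 100.0 on every array. The number of arrays, 2 per part, limits the precision. No genome build is named, so reference tables (GRCm38.p6) served for symbols, neighbours and promoters.

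Of 45101 probe sets, 64 controls were left out; 34945 others had 1 gene symbol, 932 several and 9211 none, and 34741 of the first kind matched by Entrez identifier. A probe set was kept when above its array's median on at least 2 of 12 arrays, and the kept probe set of highest mean signal stood for a gene. Signals became log2(signal + 4.43), where 4.43 is 0.25 times the overall median signal of 17.7; folds are ratios of mean signals. Models used limma 3.58.1 in R 4.3.3, with Benjamini-Hochberg adjustment over all genes; figures and permutations used Python 3.11.15. The steps were tested on simulated data with noise independent between arrays. Deviations shared by pieces of an embryo were not simulated, so these runs do not bear on them.

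Same-numbered arrays deviated together in all 15 pairs of parts (correlations 0.183 to 0.335, median 0.234), and the design text names 2 embryos. Replicate numbers were therefore taken to mark the embryos, although handling shared by same-numbered arrays could not be told apart from the embryo. Pieces of an embryo are not independent, and p-values rest on 2 embryos. Alternatives changed the offset, filter, normalization, probe set rule, replicate block and arrays used.

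Named genes are the members, up to 4 genes per list with the smallest slope p, the 5 most and 3 least correlated genes per member (clone and predicted symbols passed over), and the 2 nearest genes on each side. Tgif1, the TALE genes that did not pass and the undetected mesoderm genes were named after their values were seen. Members and lists were chosen with earlier results of these data known; promoter motifs were chosen for this report.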

Additional observations from a re-analysis of the deposited data

How the results depend on the processing

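The slopes of Irx1, Irx3 and Irx5, the F test calls of Irx3 and Irx5, their differences between parts 6 and 1 and the calls and directions of all 6 slope differences between genes held under every alternative run for them. Leaving out 1 array gave slopes of 0.25 to 0.31 for Irx1, 0.20 to 0.25 for Irx2, 1.08 to 1.28 for Irx3 and 1.00 to 1.09 log2 per part for Irx5. The slope of Irx2 was 0.19 without both arrays of part 1. The F test for Irx1 gave adjusted p = 0.0501 with an offset of 1 and 0.0777 without a filter, and 0.0287 to 0.109 on leaving out 1 array, against 0.0157 to 0.328 for Irx2. Part 6 minus part 1 for Irx2 was 1.12 with adjusted p = 0.0741 without a filter; leaving out 1 array gave 1.06 to 1.19 for Irx2 and 1.05 to 1.62 for Irx1. Small steps that never passed turned sign: Irx1 into part 6 was -0.0061 after quantile normalization and -0.093 to 0.15 on leaving out 1 array, Irx2 into part 2 -0.28 to 0.73, Irx2 into part 5 -0.16 to 0.056 and Irx3 into part 6 -0.013 to 0.22. So did slope differences between embryos (Irx1 -0.0030 to 0.14, Irx3 -0.22 to 0.39) and replicate 2 minus replicate 1 for Irx3 (-0.034 to 0.075). The cause was not tested.

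Counts of genes called moved more. The slope test called 1540 genes, 903 without both arrays of part 1 and 976 without both of part 6. Curvature was called for 179 genes, 119 without a filter and 109 to 194 on leaving out 1 array; the F test for 594, or 344 to 566; part 6 minus part 1 for 1099, or 487 to 1305; and replicate 2 minus replicate 1 for 197, or 113 to 161, with 367 at an offset of 16, 114 without a filter and 488 with the filter at the 75th percentile. Part 2 minus part 1 was called for 30 genes, 50 with an offset of 16, 12 without a filter, 73 at the 75th percentile and 11 to 113 on leaving out 1 array. With the replicate block it was called for 58, the slope for 1817, curvature for 254, the F test for 803 and part 6 minus part 1 for 1478. The block changed no call of the 4 genes and no list count. Part 3 minus part 2 was called for 23 genes, 13 with an offset of 1, 8 without a filter and 2 to 23 on leaving out 1 array. Part 4 minus part 3 was called for 1 gene, 3 with an offset of 16, 3 at the 75th percentile and 0 without a filter (limma, 767 at an unadjusted p under 0.05), part 5 minus part 4 for 1, 7 with an offset of 16 and 6 at the 75th percentile, and part 6 minus part 5 for 1, 6 with an offset of 1, 8 with 16, 2 at the 75th percentile and 0 without a filter (limma, 752 unadjusted); leaving out 1 array gave 0 to 1, 0 to 2 and 0 to 3 for these 3 steps. Signals under the offset of 4.43, as for Olig2 in part 1, carry no order.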
